A study of Mus musculus with 8 samples.

Results

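Abundant nuclear and ribosomal noncoding RNAs were followed by TT-seq, which sequences RNA made during a short pulse of 4-thiouridine (here 400 µM for 15 min), in mouse embryonic stem cells. The set was chosen by name, from genes already known to have high levels or telling patterns in these libraries, so its levels are a description with no test. Of the 9 names given, 7 are rows of the deposited table of 16940 genes: CT010467.1, Gm23935, Cmss1, Lars2, Rn7sk, Malat1 and Neat1. All 7 passed the filter of a mean of at least 10 normalized reads and were among the 15818 genes tested. Rmrp and Rpph1, the RNAs of RNase MRP and RNase P, were not analysed here.

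All cells were of the E14 line and carried CTCF, the zinc-finger protein found at the ends of many chromatin loops, fused to an auxin-inducible degron (AID), which lets the auxin IAA trigger loss of the tagged protein. They were grown without serum, with LIF, PD0325901 and CHIR99021. The 4 groups were a control overexpression line without IAA, the same line after 12 h of IAA, a line overexpressing wild-type CTCF after 12 h of IAA and a line overexpressing a mutated CTCF after 12 h of IAA. The labels name neither the mutation nor the promoter, and do not say whether a line is 1 clone. Each group had 2 replicates, and nothing in the labels says that they came from separate cultures, so p-values measure only the spread between these libraries, which may be technical. No untreated sample of either CTCF-overexpressing line was analysed here, so line and CTCF form cannot be told apart.

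Ribosomal RNA is made by RNA polymerase I in the nucleolus and is the most abundant RNA of a growing cell. The 7SK RNA, the product of Rn7sk, is made by RNA polymerase III and holds the elongation factor P-TEFb inactive in a particle with HEXIM, LARP7 and MEPCE proteins. Malat1 and Neat1 are long RNAs made by RNA polymerase II that stay in the nucleus: Malat1 lies in nuclear speckles, which store splicing factors, and Neat1 is the scaffold of paraspeckles, which hold the proteins NONO and SFPQ.

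The annotation (GENCODE M21, GRCm38) did not bear out the working name for every gene. Cmss1 (chromosome 16, 57302000 to 57606864, minus strand) and Lars2 (chromosome 9, 123366927 to 123462666, plus strand) are protein-coding; Lars2 encodes the leucyl-tRNA synthetase of mitochondria. CT010467.1 (chromosome 17, 39846353 to 39848827) is a ribosomal RNA gene. Its annotated body spans the RefSeq 18S ribosomal RNA copy Rn18s-rs5, at 39846354 to 39848202. M21 puts CT010467.1 on the minus strand and RefSeq puts Rn18s-rs5 on the plus strand, and the version of the gene in the table (ENSMUSG00000106106.3) differs from that of M21, so the strand on which it was counted is not known here. Gm23935 (chromosome 16, 11144125 to 11144181, plus strand) is annotated as a miRNA of 57 bases inside the Zc3h7a gene, which runs on the opposite strand. Rn7sk lies on chromosome 9 (78175303 to 78175633, minus strand), and Malat1 (5795690 to 5802672) and Neat1 (5824708 to 5845478) are neighbours on the minus strand of chromosome 19.

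The next lines show reference sequence at the 3 short noncoding genes, so that their loci can be recognised. They give the Gm23935 locus (chr16:11144110-11144196, plus strand) with its annotated bases in capitals, the start of the 18S copy under CT010467.1 (chr17:39846334-39846453, plus strand) with the first 100 bases of that copy in capitals, and the start of Rn7sk (chr9:78175534-78175653, minus strand) with its first 100 annotated bases in capitals. All are RefSeq's GRCm38 sequence, 5′ to 3′.
Gm23935: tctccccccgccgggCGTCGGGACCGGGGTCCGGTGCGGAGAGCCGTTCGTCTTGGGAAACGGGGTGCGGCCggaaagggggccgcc
CT010467.1: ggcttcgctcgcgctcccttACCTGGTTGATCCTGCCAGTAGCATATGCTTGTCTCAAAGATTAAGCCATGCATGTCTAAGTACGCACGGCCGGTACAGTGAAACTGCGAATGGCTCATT
Rn7sk: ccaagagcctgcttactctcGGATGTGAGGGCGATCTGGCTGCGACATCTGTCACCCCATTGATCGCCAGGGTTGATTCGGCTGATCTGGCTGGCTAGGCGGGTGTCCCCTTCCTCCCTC

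These are G- and C-rich sequences. The share of G and C was 73.7% over the 57 bases of Gm23935, 59.4% over CT010467.1 and 58.01% over Rn7sk. A blastn search with the 5815 bases around the chromosome 17 ribosomal copy, or with the 87 bases of the Gm23935 locus, found 0 matches with an E value of at most 0.001 in Cmss1, Lars2 or Rn7sk. No full ribosomal repeat was used here, and the absence of a match says only that these stretches are not in those genes.

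The 7 genes took a mean of 2.42% ± 0.0065 of all recovered reads (SD, n = 2) in untreated control cells, 2.95% ± 0.15 in control cells with IAA, 2.75% ± 0.48 in wild-type CTCF cells and 2.62% ± 0.020 in mutated CTCF cells. By mean level over the 8 libraries CT010467.1 ranked at place 1 of all genes in the table, Cmss1 at 3, Lars2 at 8 and Gm23935 at 11. Malat1 ranked at 73, Neat1 at 2087 and Rn7sk at 2768. Per 1000 bases of gene body the order was different. Gm23935 stood first, with 529753 normalized reads per 1000 bases, and CT010467.1 second with 149010, against a median of 13.6 over 16917 genes. Rn7sk had 5482 and Malat1 2306 per 1000 bases. Lars2 with 367, Cmss1 with 171 and Neat1 with 119 per 1000 bases ranked only at places 262, 639 and 1036. Whether exons or whole gene bodies were counted is not given in the sources used here.

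**Figure D1:**
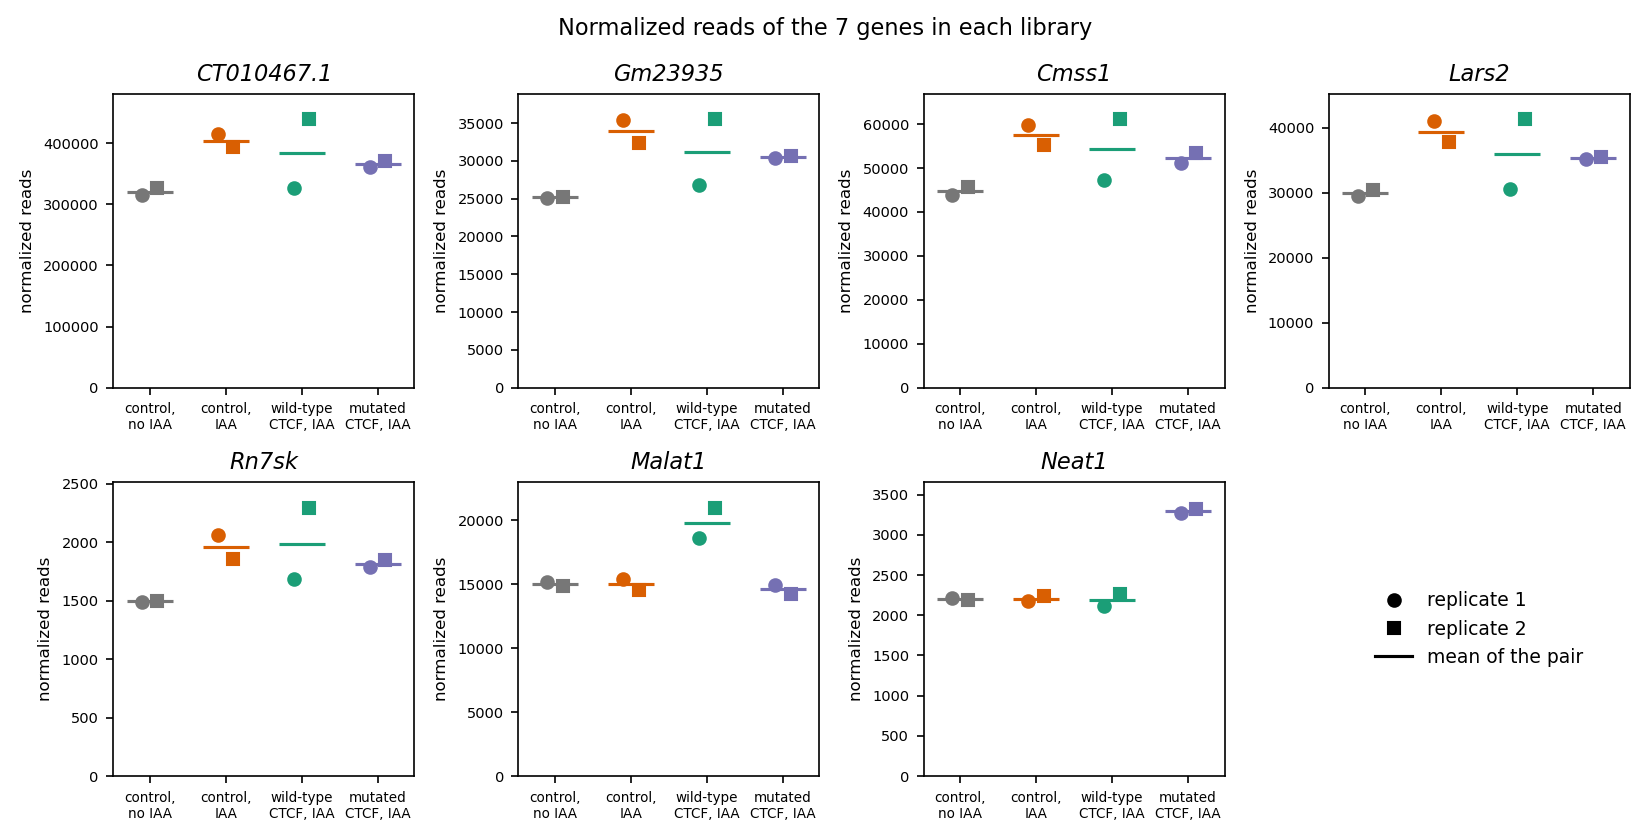
Normalized reads of each of the 7 genes (y axis, from 0) in the 4 groups (x axis), with circles for replicate 1, squares for replicate 2 and a line at their mean. In the panels of CT010467.1, Gm23935, Cmss1, Lars2 and Rn7sk the wild-type CTCF libraries stand far apart, in that of Malat1 both wild-type libraries stand above the other 6, and in that of Neat1 both mutated libraries do.

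CT010467.1, the ribosomal RNA gene, had 314861 and 326886 normalized reads in untreated control cells, 415587 and 393595 in control cells with IAA, 327591 and 439749 in wild-type CTCF cells, and 360876 and 371262 in mutated CTCF cells. Every library with IAA was above both untreated ones. Within the wild-type pair, replicate 1 was at the untreated level and replicate 2 was the highest of all 8 libraries.

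Gm23935, the short annotated miRNA locus, had 25141 and 25254 normalized reads without IAA, 35475 and 32397 with IAA, 26803 and 35516 with wild-type CTCF, and 30344 and 30638 with mutated CTCF. The order of the groups was that of CT010467.1. Expressed as a percentage of CT010467.1 in the same library, Gm23935 kept between 7.73% and 8.54%, a 1.10-fold range.

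Cmss1, whose product is a nuclear protein related to a yeast ribosome assembly factor, had 43905 and 45655 normalized reads without IAA and 59697 and 55316 with it. It had 47298 and 61147 with wild-type CTCF, and 51114 and 53470 with mutated CTCF. Cmss1 stayed at 13.9% to 14.4% of CT010467.1 in every library, a 1.04-fold range.

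Lars2 had 29523 and 30399 normalized reads without IAA and 41106 and 37746 with it, then 30570 and 41345 with wild-type CTCF and 35212 and 35465 with mutated CTCF. Its share of the CT010467.1 level ran from 9.30% to 9.89%. Its wild-type replicates again spanned nearly the whole range of the gene.

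Rn7sk, the 7SK RNA gene, had 1492 and 1497 normalized reads without IAA, 2063 and 1853 with IAA, 1687 and 2289 with wild-type CTCF, and 1790 and 1846 with mutated CTCF. Every library with IAA was again above both untreated ones. Its level was 0.458% to 0.521% of that of CT010467.1.

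Malat1 had 15156 and 14856 normalized reads without IAA, 15410 and 14578 with IAA, 18655 and 20958 with wild-type CTCF, and 14957 and 14269 with mutated CTCF. Both wild-type libraries were above all others, and the remaining 3 groups overlapped. Against CT010467.1, Malat1 ran from 3.70% to 5.69%, a 1.54-fold range.

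Neat1 had 2211 and 2187 normalized reads without IAA, 2176 and 2236 with IAA, 2118 and 2264 with wild-type CTCF, and 3277 and 3326 with mutated CTCF. Both mutated libraries were above all others, and the other 6 overlapped. Neat1 ran from 0.515% to 0.908% of CT010467.1, a 1.76-fold range.

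The first 5 genes thus shared a profile, an arrangement seen only after the values were examined, as were the percentages of CT010467.1. Profiles were compared as the root mean square difference of log2 values, each gene centred on its own mean over the 8 libraries. Among CT010467.1, Gm23935, Cmss1 and Lars2 this difference was 0.021 to 0.042, and Rn7sk differed from them by 0.054 to 0.064. Malat1 differed from each of the 5 by 0.20 to 0.23, and Neat1 by 0.29 to 0.31. The median over 10138 genes with a mean of at least 100 lay between 0.20 and 0.27, depending on the gene.

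By the same measure, the nearest gene outside the set to CT010467.1 and to Gm23935 was Gphn, which encodes the inhibitory synapse scaffold gephyrin, at 0.039 from each. Gphn had 21014 and 21191 normalized reads without IAA, 28824 and 26095 with IAA, 22458 and 28402 with wild-type CTCF, and 24116 and 23751 with mutated CTCF. Nearest to Rn7sk was Gm19951, at 0.042, which also showed the split wild-type pair, with 2134 and 2876 normalized reads. Nearest to Malat1 were Fam162a (0.044), Tprn (0.053) and Ddit4, a stress-induced inhibitor of mTOR signalling (0.054). Nearest to Neat1 were Prxl2a (0.049), Srl (0.056) and 1700024B05Rik (0.061).

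**Figure D2:**
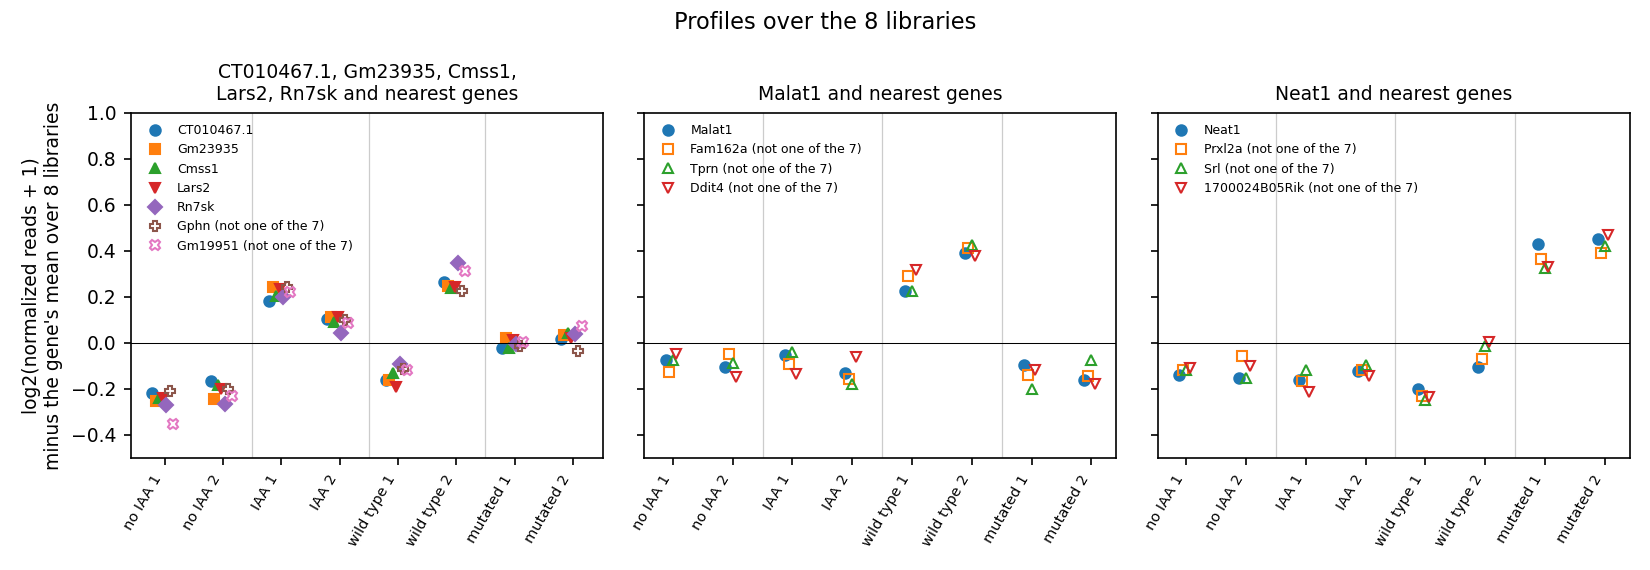
Log2(normalized reads + 1) minus the gene's own mean (y axis) in each of the 8 libraries (x axis), with filled symbols for the 7 genes and open symbols for the genes nearest to them. CT010467.1, Gm23935, Cmss1, Lars2 and Rn7sk with Gphn and Gm19951 are low in both untreated libraries and wild-type replicate 1, Malat1 is high in the wild-type pair, and Neat1 is high in the mutated pair.

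The gap between the replicates of a group, as an absolute log2 difference, was set against the differences between groups. In untreated cells the gap of the 7 genes was 0.0044 to 0.056 and in mutated CTCF cells 0.010 to 0.068. In control cells with IAA it was 0.039 to 0.15. In wild-type CTCF cells it was 0.37 for Cmss1, 0.41 for Gm23935, 0.42 for CT010467.1 and 0.44 for Lars2 and for Rn7sk, but 0.17 for Malat1 and 0.096 for Neat1. The median gap of the 4248 genes with a mean of at least 1000 was 0.043 in that pair. A gap as large as that of CT010467.1 there was reached by 0.165% of those genes, and that of Rn7sk by 0.0942%, whereas 16.8% of them reached that of Neat1; these shares count the 7 genes themselves.

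Each of the first 5 genes took its lowest shares of reads in the 3 deepest libraries. Recovered reads, which are the deposited values divided by what 1 read is worth in each library, came to 21372946 and 21335071 in untreated cells and 15671114 and 17187354 with IAA. They came to 21561141 and 18258598 with wild-type CTCF, and 18247323 and 19566201 with mutated CTCF. CT010467.1 took 1.74% to 1.78% of the reads in the 3 deepest libraries, both untreated ones and wild-type replicate 1, and 2.08% to 2.25% in both control libraries with IAA and in wild-type replicate 2. Wild-type replicate 2 and mutated replicate 1 had nearly equal depth but gave CT010467.1 2.25% and 1.89%. Before scaling, the reads of CT010467.1 ran from 345400 to 411053, a 1.19-fold range, those of Gm23935 over a 1.14-fold, of Lars2 over a 1.15-fold, of Cmss1 over a 1.17-fold and of Rn7sk over a 1.27-fold range, while the depth itself ranged 1.38-fold. The reads of Malat1 ranged 1.65-fold and those of Neat1 1.84-fold. The part of depth in these results was not tested. Counting error was small beside these differences: the 95% Wilson interval of the CT010467.1 share spanned 0.0073 percentage points or less to either side. It covers counting error only, and copies of 1 molecule would count more than once.

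**Figure D3:**
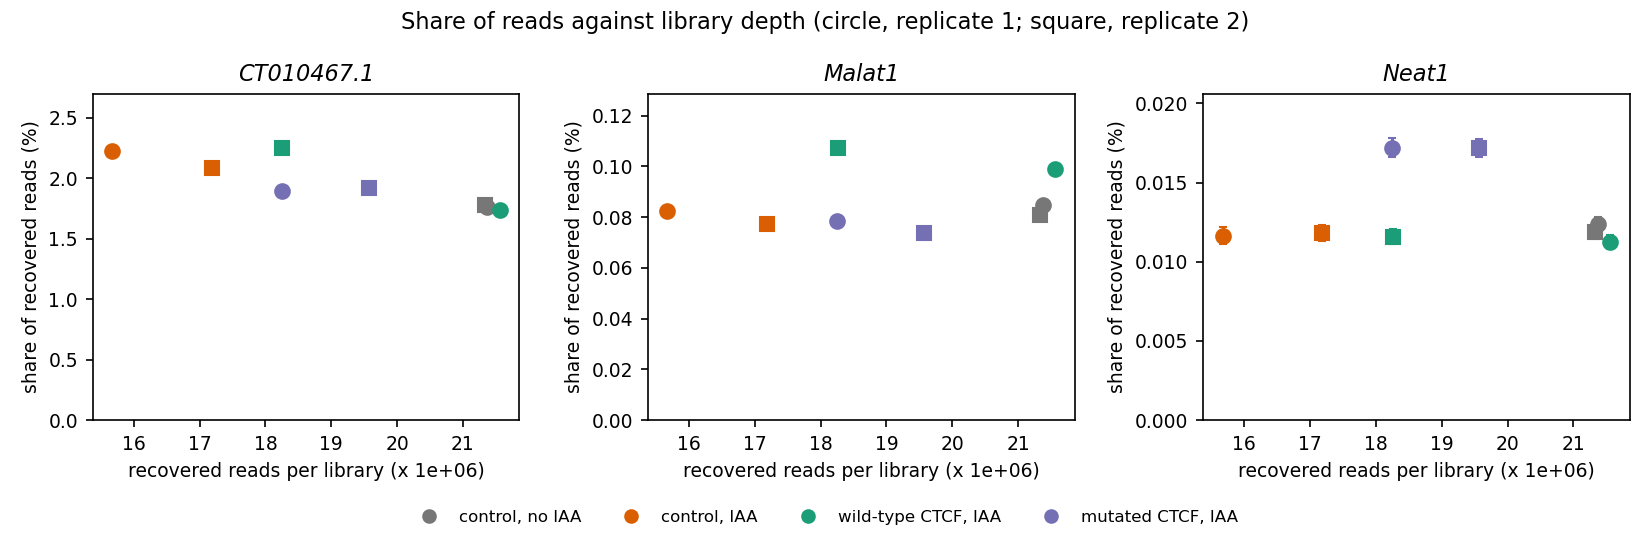
Share of recovered reads in percent (y axis, from 0) of CT010467.1, Malat1 and Neat1 against recovered reads per library (x axis, in units of 1e+06 reads), coloured by group, with 95% Wilson intervals. The CT010467.1 share is lowest, 1.74% to 1.78%, in the 3 deepest libraries; Malat1 stands high in the wild-type libraries and Neat1 in the mutated ones at either depth.

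Comparing control cells with and without IAA asks what changes with the auxin that triggers loss of tagged CTCF. No cells without the degron were analysed here, so CTCF loss and IAA itself cannot be told apart. The first 5 genes rose and Malat1 and Neat1 did not pass the test. The log2 fold change was 0.43 (SE 0.054) for Gm23935, 0.39 (SE 0.057) for Lars2, 0.39 (SE 0.070) for Rn7sk, 0.36 (SE 0.050) for Cmss1 and 0.33 (SE 0.052) for CT010467.1, which are rises of 1.26-fold to 1.35-fold. Adjusted p ran from 2.27e-08 for Gm23935 to 2e-05 for Rn7sk (limma over all tested genes, with Benjamini-Hochberg adjustment). Malat1 was at -0.0017 (SE 0.035, adjusted p = 0.978) and Neat1 at 0.0046 (SE 0.043, adjusted p = 0.948). So 5 of 7 genes were called, all higher, where 37.7% of all tested genes were called, 19.4% higher and 18.4% lower. These 5 shared a profile, as given above, so counts of the 7 here and below do not stand for separate results. The median log2 fold change was 0.36 over the 7 genes and -0.0017 over all tested genes. For the 5 genes, each difference was 2.51 to 4.26 times the larger replicate gap of the groups compared.

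These calls rest on how the spread is estimated. The fit lends each gene the spread of others of its level, and for the first 5 genes its standard error was 2.37 to 2.95 times smaller than that from the gene's own replicates in all groups, such as 0.052 against 0.15 for CT010467.1. With 1 spread for genes of every level in place of the trend with level, 0 of the 7 genes passed, with adjusted p of 0.0692 for Gm23935 to 0.132 for CT010467.1 among the first 5. For Neat1 the standard error was slightly larger than its own, 0.043 against 0.038.

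Setting wild-type CTCF cells with IAA against control cells with IAA asks which levels differ once wild-type CTCF is expressed. Malat1 rose by 0.40 on the log2 scale (SE 0.035, adjusted p = 8.36e-12), a 1.32-fold rise and 2.38 times the larger replicate gap. Lars2 passed the test as lower, at -0.15 (SE 0.057, adjusted p = 0.0422), but its libraries overlapped and the difference was 0.340 of the gap between the wild-type replicates. Gm23935 (-0.14, adjusted p = 0.0508), CT010467.1 (-0.092, adjusted p = 0.187), Cmss1 (-0.096, adjusted p = 0.145), Rn7sk (0.0074, adjusted p = 0.95) and Neat1 (-0.011, adjusted p = 0.879) did not pass. The scaling moved this: after median-of-ratios rescaling, CT010467.1 (-0.15, adjusted p = 0.0275), Cmss1 (-0.15, adjusted p = 0.0153) and Gm23935 (-0.19, adjusted p = 0.00568) passed as lower, as they did with edgeR on recovered reads (adjusted p of 0.00333 to 0.0289). Counting either direction, Gm23935 passed under 10 of 19 alternatives, Cmss1 under 6 and CT010467.1 under 4. Gm23935 was lower in all of these. Cmss1 and CT010467.1 were higher without wild-type replicate 1, at 0.090 and 0.12, and lower in the rest. The count in the main test was 1 of 7 higher and 1 of 7 lower, beside 31.6% of all tested genes called, 21.5% higher and 10% lower. The median was -0.092 over the 7 genes and 0.057 over all tested genes.

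A single wild-type library decided the first 5 genes here. Without wild-type replicate 1, the log2 fold change of CT010467.1 was 0.12, and without wild-type replicate 2 it was -0.30. Lars2 also missed the threshold without control IAA replicate 1 (adjusted p = 0.452) and without either untreated library (adjusted p = 0.109 for each), and with 1 spread for genes of every level (adjusted p = 0.499). The Lars2 call was also lost, at the same fold change, with the replicate number as a block (adjusted p = 0.0548). Fitting only the groups compared lost it too (adjusted p = 0.0764). Malat1 passed as higher under all 19 alternatives, with log2 fold changes of 0.32 to 0.48.

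Setting mutated CTCF cells with IAA against the same control cells asks the same of the mutated form. Neat1 rose by 0.58 on the log2 scale (SE 0.043, adjusted p = 6.18e-14), 14.9 times the larger replicate gap. CT010467.1 (-0.14, adjusted p = 0.0298), Gm23935 (-0.15, adjusted p = 0.0249), Cmss1 (-0.14, adjusted p = 0.031) and Lars2 (-0.16, adjusted p = 0.0285) fell to 0.897 to 0.910 of the control level. These falls were 1.17 to 1.84 times the larger replicate gap. Rn7sk, at -0.11 (adjusted p = 0.257), and Malat1, at -0.037 (adjusted p = 0.455), did not pass; Malat1 passed as lower in 2 of 19 alternatives, edgeR on recovered reads (-0.087, adjusted p = 0.0452) and limma on values rescaled by the median of ratios (-0.088, adjusted p = 0.049). This made 1 of 7 genes higher and 4 lower, beside 34.3% of all tested genes called, 22% higher and 12.4% lower, and medians of -0.14 over the 7 genes and 0.055 over all tested genes. With 1 spread for genes of every level, all 4 falls lost their calls at the same fold changes (adjusted p of 0.456 to 0.491), and 1 of 7 genes was left. They also did so, again at the same fold changes, without either untreated library, which leaves the compared libraries as they were (adjusted p of 0.0755 to 0.0911). Without control IAA replicate 1 they ran from -0.10 for CT010467.1 to -0.081 for Cmss1 (adjusted p of 0.311 to 0.409), and without mutated replicate 1 from -0.15 for Lars2 to -0.10 for Cmss1 (adjusted p of 0.064 to 0.169). CT010467.1 also missed the threshold without control IAA replicate 2 (-0.18, adjusted p = 0.0566). Neat1 passed as higher under all 19 alternatives, with log2 fold changes of 0.53 to 0.60.

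Mutated CTCF cells were then set against wild-type ones, which asks whether the CTCF forms differ. Malat1 was lower in mutated cells, at -0.44 on the log2 scale (SE 0.035, adjusted p = 5.52e-13), and Neat1 was higher, with 0.59 (SE 0.043, adjusted p = 3.56e-14). These differences were 2.60 and 6.18 times the larger replicate gap. None of the first 5 genes passed: their log2 fold changes ran from -0.11 for Rn7sk to -0.0087 for Lars2, with adjusted p of 0.216 to 0.924, and were at most 0.256 of the gap between the wild-type replicates. The count was 1 of 7 higher and 1 lower, beside 34.7% of all tested genes called, 16.3% higher and 18.4% lower, and the medians were -0.041 over the 7 genes and -0.0087 over all tested genes. Here too the wild-type library used set the sign of the first 5. Without wild-type replicate 1, CT010467.1 was at -0.26, and without wild-type replicate 2 it was at 0.16.

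**Figure D4:**
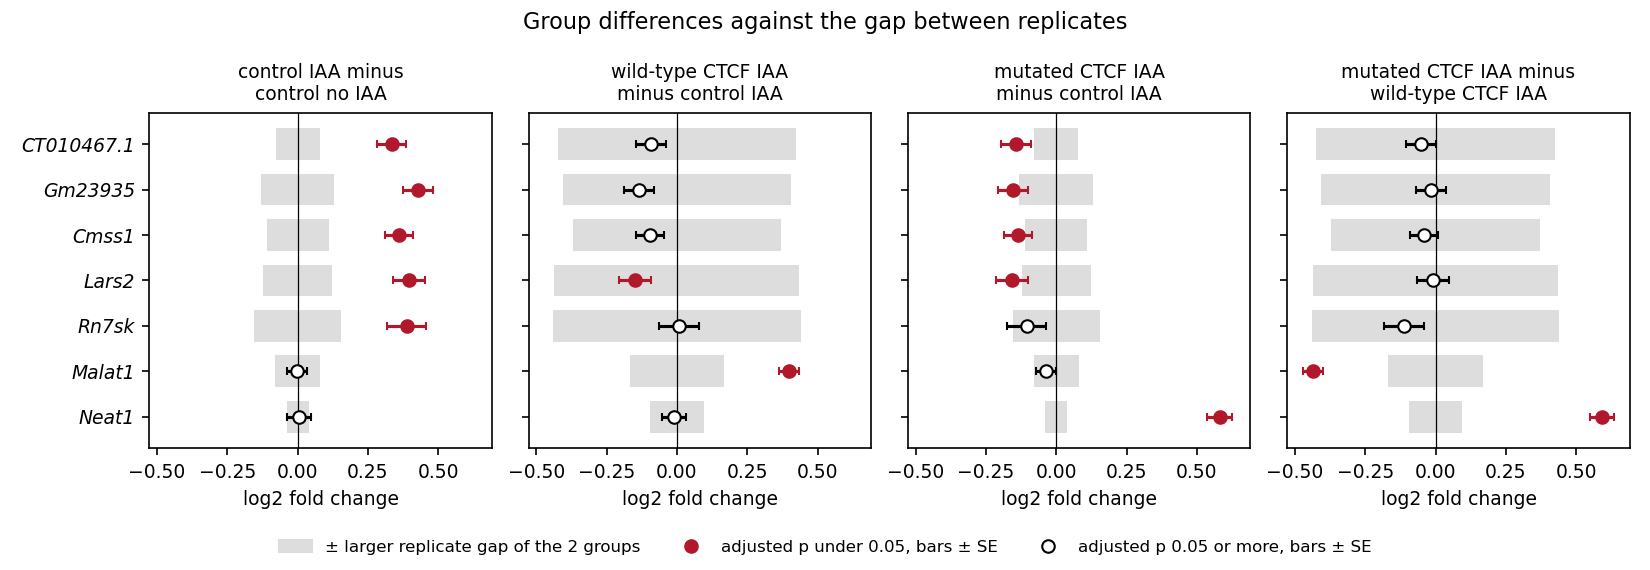
Log2 fold change with its limma standard error (x axis) of each of the 7 genes (y axis) in 4 comparisons, filled where adjusted p was under 0.05; grey bars span the larger replicate gap of the groups compared, to either side of 0. The first 5 genes lie outside the grey bar with IAA and inside it in both comparisons that use the wild-type CTCF pair; Malat1 and Neat1 lie outside it where they passed the test.

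Both CTCF-overexpressing lines were also set against untreated control cells, which are the same control libraries as above. With wild-type CTCF, the first 5 genes stood higher by 0.24 (CT010467.1) to 0.40 (Rn7sk) on the log2 scale and Malat1 by 0.40, and Neat1 did not pass (-0.0060, adjusted p = 0.927). That was 6 of 7 genes, all higher, beside 43.2% of all tested genes called, 27.6% higher and 15.6% lower. None of the 5 differences reached the gap between the wild-type replicates: they were 0.567 to 0.898 of it. Leaving out 1 library at a time, the differences ranged from 0.030 to 0.45 for CT010467.1, 0.089 to 0.50 for Gm23935 and 0.079 to 0.45 for Cmss1. For Lars2 they ranged from 0.029 to 0.46 and for Rn7sk from 0.18 to 0.62. Without wild-type replicate 2, CT010467.1, Cmss1 and Lars2 no longer passed, at 0.030, 0.079 and 0.029. With mutated CTCF, the first 5 stood higher by 0.19 (CT010467.1) to 0.28 (Rn7sk), and Neat1 by 0.59, while Malat1 had -0.039 (adjusted p = 0.418). This was again 6 of 7 genes, all higher, beside 37.8% called, 24% higher and 13.7% lower. The 5 differences were 3.44 to 19.8 times the larger replicate gap. With 1 spread for genes of every level, all 5 lost their calls at the same fold changes, with adjusted p of 0.092 to 0.233 for wild-type and 0.187 to 0.353 for mutated CTCF, and 1 of 7 genes was called in each. With wild-type CTCF, scaling every library to the same total gave Neat1 a call as lower, at -0.088 (adjusted p = 0.048). With mutated CTCF, the same scaling lost the CT010467.1 call, at 0.11 (adjusted p = 0.0865). It also gave Malat1 a call as lower, at -0.12 (adjusted p = 0.00227), as did 3 other alternatives of scaling or tool (-0.12 to -0.088). Without untreated replicate 1, CT010467.1 (0.16) and Lars2 (0.22) no longer passed.

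Filip1l, a protein-coding gene that overlaps Cmss1 on the opposite strand, had 4283 and 5430 normalized reads without IAA, 6261 and 6568 with IAA, 5102 and 6626 with wild-type CTCF, and 5646 and 6350 with mutated CTCF. That was 9.75% to 11.9% of the Cmss1 level in each library, a ratio chosen after the values were seen. Filip1l rose with IAA by 0.41 on the log2 scale (SE 0.070, adjusted p = 7.26e-06). Zc3h7a, which encodes a zinc-finger protein and holds Gm23935 on its other strand, had 3714 and 4891 normalized reads without IAA, 4946 and 4773 with it, 4048 and 5573 with wild-type CTCF and 4548 and 5493 with mutated CTCF. It ran from 13.9% to 19.4% of the Gm23935 level and did not pass the test with IAA (0.19, SE 0.083, adjusted p = 0.0703). The libraries were strand-specific per the labels, but the strand setting used in counting is not given in the sources used here, so reads of a gene and its opposite-strand partner may not be fully separated.

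Of the nearest genes on either side of Rn7sk, Lars2 and CT010467.1, 1 of each pair fell with IAA and the other did not pass. Cilk1, a protein kinase gene 3196 bases from Rn7sk, fell from 1219 and 1192 to 525 and 558 normalized reads, which is -1.15 on the log2 scale (SE 0.061, adjusted p = 6.99e-19). Limd1, 16040 bases from Lars2, changed by -0.46 (SE 0.086, adjusted p = 3.87e-05), and Gm20541, 1833957 bases from CT010467.1, by -0.42 (SE 0.084, adjusted p = 8.41e-05). Those that did not pass were C920006O11Rik, only 281 bases from Rn7sk (-0.12, adjusted p = 0.627), Cdcp1 beside Lars2 (-0.21, adjusted p = 0.756) and Crisp1 beside CT010467.1 (0.35, adjusted p = 0.162). Txndc11, 9475 bases from Gm23935, rose by 0.19 (SE 0.044, adjusted p = 0.000693), and 4930509G22Rik on the other side did not pass (0.35, adjusted p = 0.181). Malat1 and Neat1, 22036 bases apart, are each other's neighbours. Against control cells with IAA, Malat1 passed as higher only in the wild-type CTCF line and Neat1 only in the mutated CTCF line.

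Other abundant noncoding RNAs were taken from a list of 41, of which 17 were tested. For this and the following lists, the shares of all tested genes called higher and lower stand beside the counts, and the median log2 fold change of all tested genes is given here for each comparison. With IAA, 7 of 17 were higher and 2 lower, beside 19.4% higher and 18.4% lower of all tested genes, and the median log2 fold change was 0.19, beside -0.0017. Rnu11, a minor spliceosome RNA, rose by 0.87 (SE 0.17, adjusted p = 4.84e-05), from 71.0 and 68.1 to 127 and 128 normalized reads. Rnu5g, a U5 spliceosome RNA, rose by 0.58 (SE 0.13), while the long noncoding RNAs Meg3 and Tug1 fell by 0.32 (SE 0.052) and 0.34 (SE 0.051). With wild-type CTCF, 6 of 17 were higher and 6 lower, beside 21.5% and 10%, with a median of -0.033 beside 0.057. Meg3 rose by 0.69 (SE 0.052), and Rnu2-10, a U2 RNA gene, fell by 0.64 (SE 0.090). With mutated CTCF, 2 of 17 were higher and 5 lower, beside 22% and 12.4%, with a median of -0.067 beside 0.055; Meg3 was at 0.44 and Rnu11 at -0.77. Mutated against wild-type cells gave 2 of 17 higher and 5 lower, beside 16.3% and 18.4%, with a median of -0.16 beside -0.0087. Firre, a nuclear long noncoding RNA, was higher by 0.20 and Snhg1 lower by 0.25 there. Meg3 lay between 986 and 1609 normalized reads and was lowest in control cells with IAA.

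Proteins of the 7SK particle and P-TEFb made a list of 11, all tested. With IAA 4 of 11 were higher and 0 lower (all tested genes, 19.4% and 18.4%), with a median of 0.063. With wild-type CTCF 7 of 11 were higher and 0 lower (21.5% and 10%), with a median of 0.20. With mutated CTCF 5 of 11 were higher and 2 lower (22% and 12.4%), with a median of 0.12. Hexim1, which encodes the P-TEFb inhibitor, had 219 and 232 normalized reads without IAA, 261 and 225 with IAA, 268 and 323 with wild-type CTCF, and 169 and 175 with mutated CTCF. Both mutated libraries were the lowest of the 8. Hexim1 was lower in mutated than in control cells with IAA (-0.49, SE 0.11, adjusted p = 0.000377) and than in wild-type cells (-0.77, SE 0.11, adjusted p = 3.4e-07). Larp7 and Mepce, which stabilise and cap 7SK RNA, were higher with wild-type CTCF, by 0.32 (SE 0.062) and 0.55 (SE 0.11). Mutated against wild-type cells gave 1 of 11 higher, Hexim2 by 0.56 (SE 0.19), and 4 lower (16.3% and 18.4%), with a median of -0.094.

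Paraspeckle and nuclear speckle proteins made a list of 16 tested genes. With IAA 9 of 16 were higher and 1 lower (all tested genes, 19.4% and 18.4%), with a median of 0.12: Nono, a core paraspeckle protein, rose by 0.22 (SE 0.045) and Hnrnpk by 0.23 (SE 0.037), and Cpsf6 fell by 0.14 (SE 0.037). With wild-type CTCF 5 were higher and 0 lower (21.5% and 10%), with a median of 0.041, among them Srrm2, a speckle scaffold, by 0.28 (SE 0.039), and Sfpq by 0.19 (SE 0.033). With mutated CTCF 3 were higher and 0 lower (22% and 12.4%), with a median of 0.018, among them Cpsf6 by 0.17 and Srrm1 by 0.16. Mutated against wild-type cells gave 2 higher, Matr3 and Cpsf6, and 4 lower (16.3% and 18.4%), with a median of 0.012. No gene of this list rose in mutated cells by as much as Neat1.

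Of the RNA polymerase I machinery, which makes ribosomal RNA, 19 genes were tested. With IAA 8 of 19 were higher and 3 lower (all tested genes, 19.4% and 18.4%), with a median of 0.13. Taf1d rose by 0.29 (SE 0.033) and Ncl, the nucleolar protein nucleolin, by 0.27 (SE 0.031), while Taf1a fell by 0.31 (SE 0.084). With wild-type CTCF 14 were higher and 0 lower (21.5% and 10%), with a median of 0.19. With mutated CTCF 6 were higher and 1 lower (22% and 12.4%), with a median of 0.11, and mutated against wild-type cells gave 2 higher and 5 lower (16.3% and 18.4%), with a median of -0.077. Rrn3, the initiation factor of RNA polymerase I, rose by 0.39 (SE 0.042) with mutated CTCF. Of the RNA polymerase III machinery, 28 genes were tested. With IAA 3 were higher and 5 lower (19.4% and 18.4%), with a median of -0.0035, and the large subunit gene Polr3a was at -0.57 (SE 0.066). Polr3a was higher again with wild-type CTCF (0.62, SE 0.066) and with mutated CTCF (0.51, SE 0.066), values that share the same control libraries. The counts there were 4 higher and 2 lower with wild-type CTCF (21.5% and 10%, median 0.071) and 10 higher and 0 lower with mutated CTCF (22% and 12.4%, median 0.14). Mutated against wild-type cells gave 8 higher and 0 lower (16.3% and 18.4%, median 0.055). Of the proteins of RNase P and RNase MRP, 10 were tested, and 0 rose and 3 fell with IAA (19.4% and 18.4%), with a median of -0.084 and Rpp14 at -0.68 (SE 0.081). Of these 10, 3 were higher and 0 lower with wild-type CTCF (21.5% and 10%, median 0.15) and likewise with mutated CTCF (22% and 12.4%, median 0.16).

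All 6 embryonic stem cell markers were in the table, with Esrrb at 13724 to 16985 and Nanog at 5172 to 6824 normalized reads. With IAA 1 of 6 was higher, Tdgf1 by 0.13, and 2 lower, beside 19.4% and 18.4% of all tested genes. With wild-type CTCF 5 were higher, beside 21.5%, and with mutated CTCF 6, beside 22%. The list medians were 0.014, 0.22 and 0.21 in that order. None of 5 fibroblast or feeder markers was among the genes analysed. Of 4 primitive endoderm markers 3 were tested, at 15.9 to 187 normalized reads, and with IAA 2 were higher, Pdgfra by 1.78 (SE 0.21) and Gata4 by 0.64 (SE 0.14), and 1 was lower, Gata6 at -0.59 (SE 0.21, adjusted p = 0.0239). Pdgfra was also higher than in untreated cells in both CTCF lines, by 1.67 with wild-type and 1.66 with mutated CTCF (SE 0.21 for each). Gata6 was lower there, at -0.54 with wild-type (adjusted p = 0.0335) and -0.80 with mutated CTCF (adjusted p = 0.00211). Gata4 was higher than in untreated cells with mutated CTCF (0.39, adjusted p = 0.0283) but did not pass with wild-type CTCF (0.11, adjusted p = 0.539). Against control cells with IAA, Gata4 was lower with wild-type CTCF (-0.52, adjusted p = 0.00414). Of 4 trophectoderm markers only Eomes was tested, at 38.5 to 82.4. Eomes was higher with wild-type CTCF, by 0.77 against control cells with IAA (SE 0.21, adjusted p = 0.00538) and 0.57 against untreated cells (adjusted p = 0.0302), and mutated against wild-type cells gave -0.81 (adjusted p = 0.00272); Malat1 was higher in the same 3 comparisons of wild-type cells. The stem cell markers Pou5f1, Nanog and Zfp42 also passed as higher in wild-type cells in these 3 comparisons. Their values were 0.42, 0.35 and 0.27 against control cells with IAA, and 0.46, 0.34 and 0.11 against untreated cells. Mutated against wild-type cells gave -0.19, -0.18 and -0.19. Klf4, Esrrb and Tdgf1 did not pass in that direction in all 3. Mutated against wild-type cells gave Klf4 0.28 (adjusted p = 1.07e-05) and Esrrb 0.081 (adjusted p = 0.0312), both higher. Tdgf1 did not pass there (0.063, adjusted p = 0.265). That comparison thus had 2 of 6 markers higher and 3 lower, beside 16.3% and 18.4% of all tested genes. In bulk samples fewer cells of a type and less RNA per cell cannot be told apart, and the part of these markers in the results was not tested.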

How the data were processed

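TT-seq was measured in 8 libraries, 2 in each of 4 groups taken from the sample titles. The authors deposited 1 table of normalized counts, a signal in which every value is a whole number of reads times 1 factor per library (100% of values, within 0.01 reads). Per the submitters' processing notes, Trim Galore, STAR, featureCounts and DESeq2 were used with mm10; their roles and versions are not given in the sources used here. The table held 0 columns of other samples, and every gene listed reached 10 reads in 2 or more libraries.

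The main test was limma 3.58.1 in R 4.3.3 on log2(value + 1), with 1 coefficient per group, all 8 libraries, a mean-variance trend and 4 residual degrees of freedom. The 15818 genes averaging 10 or more were tested, with Benjamini-Hochberg adjustment over them in each of 6 comparisons and a threshold of 0.05. Fold changes on this scale understate the change of low genes. The script was tested on simulated data. edgeR 4.0.16 was run on recovered reads as an alternative only. Other alternatives were the pseudocount, the filter on low values, the scaling, the groups in the fit, the trend, the replicate block and leaving out each library.

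Gene IDs were matched to GENCODE M21 (16917 of 16940, 96.9% in the same version); 15 mitochondrially encoded RNAs were listed and 0 were analysed here. blastn was version 2.17.0. Other genes named are, per list and comparison, up to 2 highest and 2 lowest among those that passed with a mean of at least 50, the table genes overlapping or nearest to a member, and the 3 genes of nearest profile; Hexim1 in every comparison and the range of markers were added after their values were seen. The members, lists and alternatives were chosen with earlier results of these data known.

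Replicate numbers come from the titles. Over the 6 pairs of groups, the deviations of same-numbered libraries from their group means correlated at -0.022 to 0.028 across genes, so the numbers were not taken to pair the libraries.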

Additional observations from a re-analysis of the deposited data

Results flagged for a closer look

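The effects of the CTCF forms, each against control cells with IAA, differed for Malat1 and Neat1. The control libraries cancel in that difference, so it is the comparison of mutated with wild-type cells given above and no further test (limma, adjusted over all tested genes). It was -0.44 on the log2 scale for Malat1 (adjusted p = 5.52e-13) and 0.59 for Neat1 (adjusted p = 3.56e-14). Both differences had the same sign when each of the 8 libraries was left out in turn. Line and CTCF form cannot be told apart.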

How the results depend on the processing

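Of 798 values of the 7 genes under alternatives, 691 kept their direction and side of the threshold, 19 changed sign with no call on either side, 49 lost their call, 31 gained one and 8 changed sign with a call on at least 1 side. Without the mean-variance trend, 0 of the 7 genes were called for IAA, and 1 each for wild-type CTCF, mutated CTCF, wild-type CTCF against untreated and mutated CTCF against untreated. The calls over all genes then fell to 3946, 2379, 3228, 3263 (mutated against wild type) and 3869 (mutated against untreated). For wild-type CTCF, 5 of 7 genes were called after median-of-ratios rescaling and with edgeR on recovered reads, 4 with the same total and with the same total of genes other than the 7, and 1 with only the groups compared or with the replicate number as a block. The block changed no other count of members by over 1.5 times, and the same-numbered libraries were not shown to be paired (correlation -0.022 to 0.028). The cause of these shifts was not tested.

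Leaving out each library in turn, the genes called of 7 ranged from 5 to 5 for IAA, 1 to 6 for wild-type CTCF, 1 to 5 for mutated CTCF, 2 to 7 for mutated against wild type, 3 to 6 for wild type against untreated and 4 to 6 for mutated against untreated. All-gene calls for wild-type CTCF ranged from 3274 (without wild-type replicate 2) to 5079. The log2 fold changes for wild-type CTCF ranged from -0.30 to 0.12 for CT010467.1, -0.34 to 0.067 for Gm23935, -0.28 to 0.090 for Cmss1, -0.37 to 0.070 for Lars2 and -0.21 to 0.23 for Rn7sk. Those for mutated against wild type ranged from -0.26 to 0.16 for CT010467.1, -0.22 to 0.19 for Gm23935, -0.23 to 0.14 for Cmss1, -0.23 to 0.21 for Lars2 and -0.33 to 0.11 for Rn7sk. Where a library was left out, its lone partner was assumed to vary like the other groups. The gene of the set with the fewest reads, Rn7sk, had at least 1685 in each library.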
